A study of Homo sapiens with 6 samples.

Results

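The Wnt ligands, receptors and secreted regulators described here are 56 genes given by name, with the feedback and nuclear genes of the same pathway among them. All 56 were found by symbol in a table of 61806 genes. They were read in 3 libraries of cells with LAPTM4B knocked down and 3 libraries of control cells. LAPTM4B is a membrane protein found on late endosomes and lysosomes. The knockdown libraries carry the genotype label LAPTM4B knockdown and titles with shLAP, and the control libraries carry the label WT and titles with NC. Cells of both groups were labelled HepG2, an established human hepatoma line, and the series text describes them as positive for CD133, a surface protein used to select stem-like tumour cells. The labels do not give the hairpin, its delivery, or whether the cells were a clone or a pool. The series title places the comparison within work on LAPTM4B, the co-activator YAP and stem-like behaviour of hepatocellular carcinoma.

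Wnt proteins are secreted, lipid-modified signals that bind Frizzled receptors. In the canonical arm, LRP co-receptors join Frizzled and beta-catenin is spared from degradation, enters the nucleus and activates genes together with TCF and LEF factors. In the non-canonical arm, ligands such as WNT5A act through ROR and RYK receptors on cell polarity, movement and calcium without a need for beta-catenin. In liver the canonical arm sets the gene programme of hepatocytes near the central vein, and it is often activated by mutation in hepatocellular carcinoma. HepG2 cells are known to carry a deletion in CTNNB1 that stabilises beta-catenin. Whether the cells read here carry it was not tested and is not assumed below.

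Total gene counts were 15204269 to 16303949 in the knockdown libraries and 15667396 to 19987318 in the control libraries. LAPTM4B itself was lower in the knockdown, at 72.4 ± 1.58 normalised FPKM in knockdown cells and 104 ± 4.37 in control cells (SD, n = 3 each; log2 change -0.53, SE 0.04; edgeR adjusted p = 3.25e-12). Normalised FPKM is the read count per kilobase of exon and per 1000000 counts, with library totals rescaled by TMM, and it is used for every level below. Of 19 hepatocyte and HepG2 markers, 10 never exceeded 3 counts in a library. The genes ALB, APOA1, APOB and APOH had no count in any library, and AFP had 0 to 4 counts. The transcript of CD133, PROM1, had 6 to 12 counts in knockdown libraries and 1 to 3 in control libraries. HNF4A, a hepatocyte transcription factor, had 52 to 104 counts. Transcripts of albumin and the apolipoproteins, which define the labelled line, were thus at or near 0 in both groups. CPM is the read count per 1000000 counts, with library totals rescaled by TMM in the same way. Summed over the list, hepatocyte markers lay at 12.7 to 13.4 CPM in knockdown libraries and 25.2 to 26.8 CPM in control libraries. FGB made up the largest part of this sum. It fell, at 5.44 CPM in knockdown libraries and 12.0 CPM in control libraries (log2 change -1.14). FGA, FGG, SERPINA1 and FOXA2 fell as well, from lower levels, whereas RBP4 and HNF4A did not pass. Fibroblast and stellate cell markers lay at 18.2 to 20.9 CPM in knockdown libraries and 11.8 to 15.0 CPM in control libraries, with 2 of 8 at 10 or more counts in every library. Bile duct markers lay at 262 to 270 CPM in knockdown libraries and 77.3 to 78.6 CPM in control libraries, endothelial markers at 60.3 to 66.8 CPM in knockdown libraries and 51.9 to 55.9 CPM in control libraries, and leukocyte markers at 0.710 to 1.79 CPM in knockdown libraries and 1.08 to 1.78 CPM in control libraries. Within the bile duct and endothelial lists the genes differed in direction. KRT7 made up most of the bile duct sum in knockdown libraries and rose, at 62.5 ± 0.825 normalised FPKM in knockdown cells and 9.685 ± 0.152 in control cells (log2 change 2.69), whereas SOX9 and EPCAM fell (log2 changes -1.33 and -1.28). ESAM made up most of the endothelial sum in both groups, at 62.3 CPM in knockdown libraries and 51.8 CPM in control libraries, and rose (log2 change 0.26), whereas PECAM1 fell (log2 change -3.25; 0.188 CPM in knockdown libraries and 1.88 CPM in control libraries). In the fibroblast list PDGFRB rose (log2 change 3.43), and COL1A1 and ACTA2 did not pass. HNF4A, APOH, FGA, FGB, FGG, SERPINA1, FOXA2, RBP4, KRT7, EPCAM, ESAM, PECAM1, PDGFRB, COL1A1 and ACTA2 were named after their values were seen. The part of these differences in the results below was not tested.

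Of the 56 genes, 39 had enough counts to test. With knockdown set against control and a threshold of 0.05 on edgeR's adjusted p, 9 of these 39 rose, 13 fell and 17 did not pass. The share called, 56.4%, was close to the 55.9% called among all 16354 genes tested. The higher members made up 23.1% of those tested, against 28.0% of all genes, and the lower members 33.3%, against 27.9%. Called changes of 2-fold or more were found for 8 members, 20.5% of those tested, against 11.3% of all genes. Of the 39 tested, 2 rose and 6 fell by that much, against 638 (3.90%) and 1213 (7.42%) of all 16354 genes. Among those that fell, WNT2B, WNT11, TCF7 and TCF7L1 averaged below 1 normalised FPKM in both groups. The groups did not overlap for 25 members, 64.1% of those tested, against 60.3% of all genes. The median log2 change was -0.09 over the tested members and 0.01 over all genes tested. In bulk RNA, fewer cells of a type and less RNA per cell cannot be told apart. Separate cultures for the replicates are not stated in the labels, and p-values here cover the spread of these libraries alone, which may be technical.

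**Figure D1:**
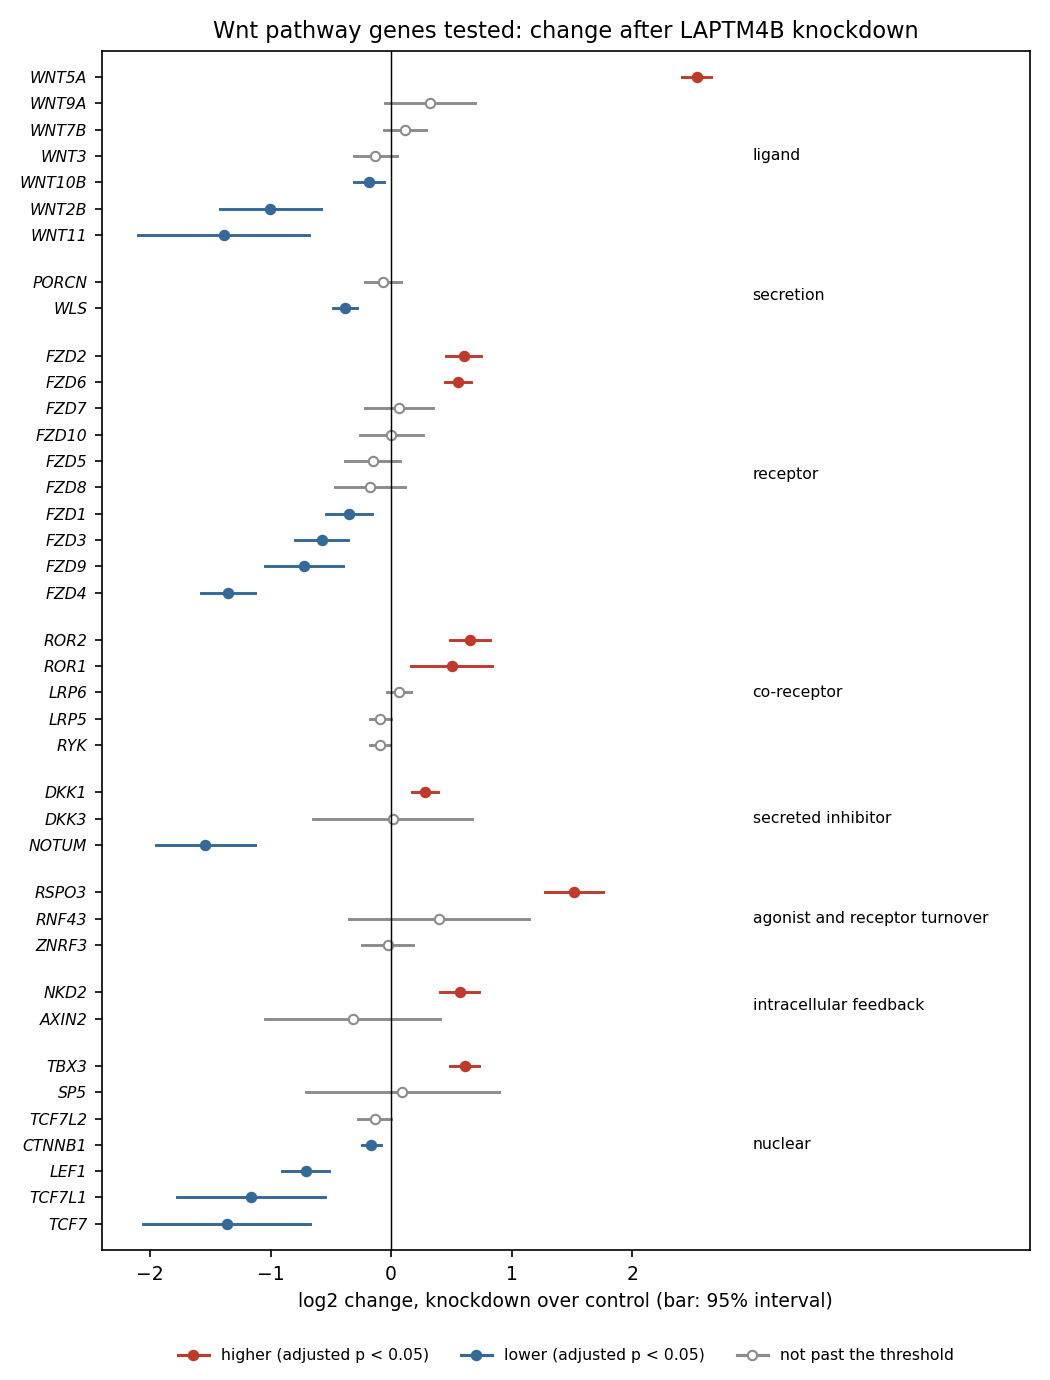
Log2 change (knockdown over control, horizontal axis) of the 39 genes tested, grouped by role on the vertical axis, with the 95% interval as a bar; filled points passed an adjusted p of 0.05. WNT5A stands farthest to the right at 2.53, RSPO3 follows at 1.52, and NOTUM is farthest to the left at -1.54.

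WNT5A, the best-studied non-canonical ligand, showed the largest change of the members tested. It was at 16.9, 17.9 and 16.9 normalised FPKM in the knockdown libraries, against 3.10, 3.14 and 2.71 in the control libraries. Every knockdown library lay far above every control library. The means were 17.2 ± 0.573 in knockdown cells and 2.98 ± 0.238 in control cells (SD, n = 3 each). This was a 5.79-fold rise (log2 change 2.53, SE 0.06; edgeR adjusted p = 6.34e-23). The value rests on 1898 to 2023 counts in each knockdown library and 347 to 399 in each control library. The gene lies on chromosome 3 at 55465715 to 55490539 (hg38). Its closest relative, WNT5B, had only 1 to 3 counts in knockdown libraries and 0 to 2 in control libraries.

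RefSeq lists 2 start sites for WNT5A, and the 250 bases before each are shown because they are the promoters of the member that changed most. The counts do not separate transcripts from these starts.
WNT5A, upstream start (GRCh38.p14, chr3:55487307-55487556, minus strand): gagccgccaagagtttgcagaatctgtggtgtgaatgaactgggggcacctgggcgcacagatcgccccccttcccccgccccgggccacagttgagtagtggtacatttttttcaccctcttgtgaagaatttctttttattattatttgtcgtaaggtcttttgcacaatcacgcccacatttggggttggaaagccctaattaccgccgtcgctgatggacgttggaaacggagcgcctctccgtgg
WNT5A, downstream start (GRCh38.p14, chr3:55481399-55481648, minus strand): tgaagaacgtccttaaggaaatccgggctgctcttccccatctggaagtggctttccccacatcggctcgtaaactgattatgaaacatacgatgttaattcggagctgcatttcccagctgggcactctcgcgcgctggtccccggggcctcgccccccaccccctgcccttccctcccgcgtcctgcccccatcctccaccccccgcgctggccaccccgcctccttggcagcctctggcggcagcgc
A search of both windows on both strands for CTTTGA, a core of TCF and LEF sites, and for GGAATG, a core of sites for TEAD, the DNA-binding partner of YAP, found neither string. Absence of these letters from the windows says nothing about binding elsewhere. CTTTGA or its reverse was in 11.2% of 35116 RefSeq promoter windows of this length and GGAATG or its reverse in 11.9%. Promoters were matched for 39 of the 56 genes, 48 windows in all. CTTTGA was found for DKK1, SP5 and PORCN, in 3 windows or 6.25%, and GGAATG for DKK1 and RNF43, in 2 windows or 4.17%.

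The main ligand of control cells was WNT10B, which acts through beta-catenin. It was at 16.97, 19.3 and 18.1 normalised FPKM in knockdown libraries and 20.4, 19.7 and 21.7 in control libraries. All knockdown libraries lay below all control libraries, but the nearest values differed little. The change was small (log2 change -0.19, SE 0.06; edgeR adjusted p = 0.0104). The call was lost without control replicate 3 (adjusted p = 0.0574), without knockdown replicate 1 (0.0924) and with limma on FPKM (0.0980), within a range of 0.00393 to 0.0980 over all alternatives.

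**Figure D2:**
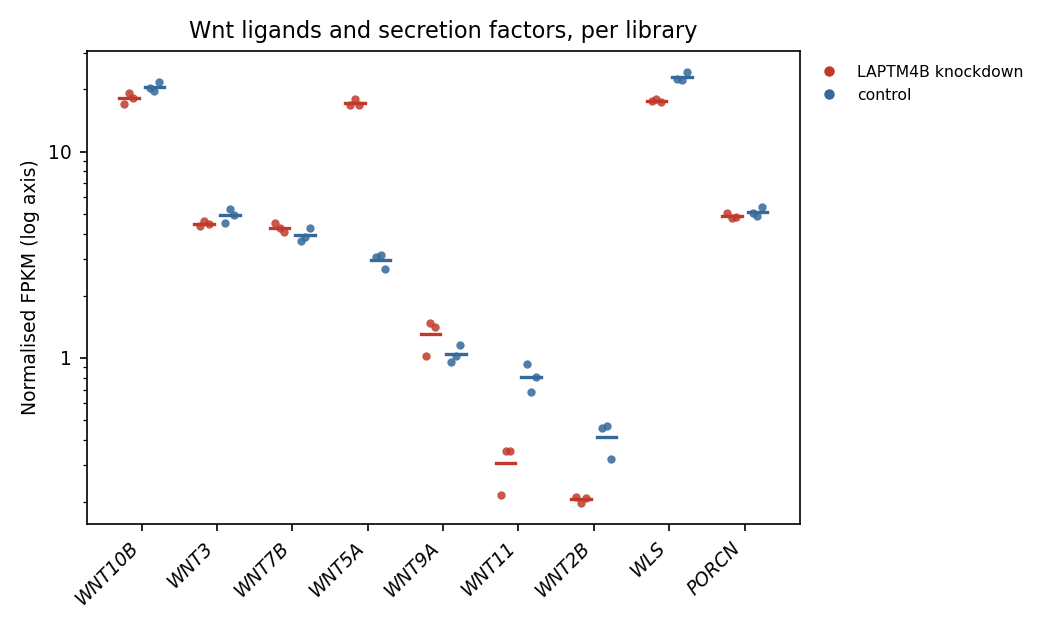
Normalised FPKM on a log axis for the 7 ligands and 2 secretion genes tested; points are libraries, bars are means, knockdown to the left of control for each gene. WNT5A sits near 17 in the 3 knockdown libraries and near 3 in the 3 control libraries.

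WNT2B and WNT11 were low and fell. WNT11, a ligand mostly tied to non-canonical signalling, was at 0.215, 0.354 and 0.353 normalised FPKM in knockdown libraries and 0.936, 0.682 and 0.805 in control libraries. The groups were apart, on 8 to 14 counts per knockdown library and 25 to 40 per control library (log2 change -1.39, SE 0.35; edgeR adjusted p = 0.00125). WNT2B, a canonical ligand whose fall was just past 2-fold, was at 0.211, 0.198 and 0.208 in knockdown libraries and 0.457, 0.465 and 0.321 in control libraries (log2 change -1.002, SE 0.20; edgeR adjusted p = 1.55e-04). Of its exonic bases, 21.2% are shared with ST7L on the other strand. Counts of the pair may mix, since no source used here gives the strand setting, and ST7L itself was higher in the knockdown (log2 change 0.28). Of the other members, TCF7, DKK1, RNF43, WLS and FZD6 shared 1.9 to 9.6% of their exonic bases with another expressed gene, and FZD4 more, as given below.

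WNT3, WNT7B and WNT9A did not pass the test. WNT3 averaged 4.46 ± 0.110 normalised FPKM in knockdown cells and 4.90 ± 0.381 in control cells (95% interval of the log2 change -0.31 to 0.05). WNT7B averaged 4.28 ± 0.209 in knockdown cells and 3.94 ± 0.301 in control cells (interval -0.06 to 0.29). WNT9A averaged 1.30 ± 0.247 in knockdown cells and 1.04 ± 0.0972 in control cells (interval -0.05 to 0.69), and it passed only without knockdown replicate 1 (edgeR adjusted p = 0.0395). The other 10 ligands were too low to test, with at most 18 counts in any library. WNT2, WNT3A, WNT5B, WNT8B and WNT10A did not exceed 3 counts in any of the 6 libraries. WNT7A had no count in the knockdown libraries and 0 to 4 in the control libraries. WNT4 had 6 to 9 counts in knockdown libraries and 8 to 10 in control libraries. WNT16 had 9 to 18 in knockdown libraries and 3 to 15 in control libraries. WNT6 had 2 to 6 in knockdown libraries and 1 to 7 in control libraries, and WNT1 had 2 to 3 in knockdown libraries and 4 to 11 in control libraries. A limit of 3 counts was 0.155 to 0.194 CPM over the 6 libraries and covers counting error only.

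The make-up of the ligand transcripts differed between the groups. Summed over 17 ligands, normalised FPKM was 45.01 to 48.6 in knockdown libraries and 34.8 to 36.2 in control libraries. WNT5A made up 36.7 to 37.5% of that sum in knockdown libraries and 7.46 to 9.01% in control libraries. WNT10B made up 37.7 to 39.7% in knockdown libraries and 56.6 to 59.8% in control libraries. In control cells the order of mean levels was WNT10B, WNT3, WNT7B and WNT5A. In knockdown cells WNT10B and WNT5A stood at the top with overlapping values, and WNT3 and WNT7B followed, also overlapping each other.

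**Figure D3:**
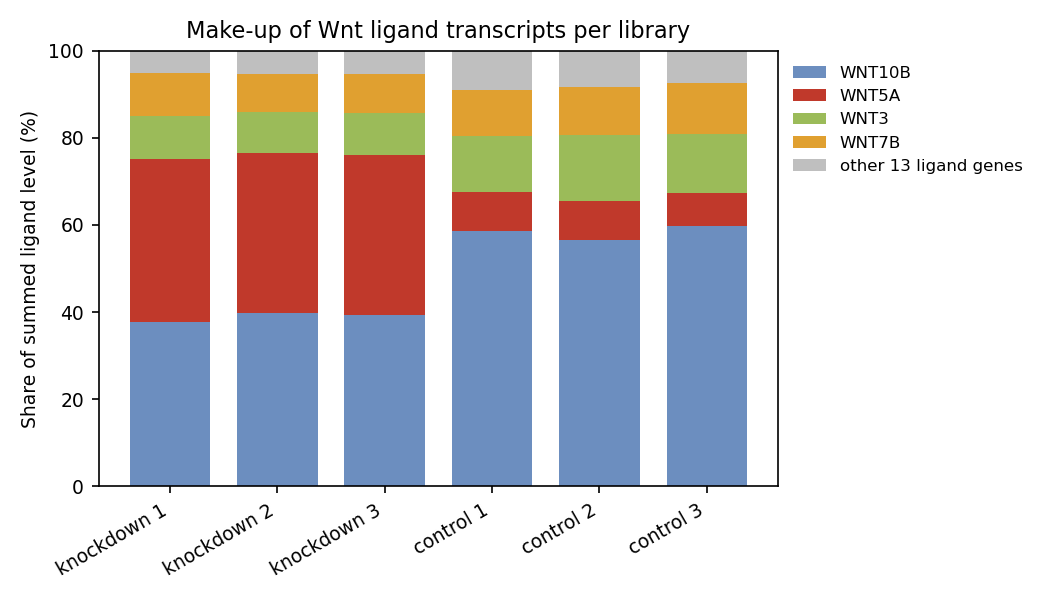
Share of the summed ligand level (percent of normalised FPKM over 17 ligands) in each of the 6 libraries, knockdown at the left and control at the right. The WNT5A segment takes 36.7 to 37.5% in knockdown libraries and 7.46 to 9.01% in control libraries.

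Of the genes needed to make and release active Wnt proteins, WLS fell and PORCN did not pass. WLS, the carrier that takes lipid-bearing Wnt to the cell surface, was at 17.5, 17.9 and 17.5 normalised FPKM in knockdown libraries and 22.5, 22.2 and 24.2 in control libraries. It was lower in every knockdown library (log2 change -0.38, SE 0.05; edgeR adjusted p = 9.79e-08). PORCN, the acyltransferase that attaches the lipid, averaged 4.88 ± 0.157 in knockdown cells and 5.11 ± 0.259 in control cells and did not pass (interval of the log2 change -0.22 to 0.08).

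All 10 Frizzled receptors were tested: 2 rose, 4 fell and 4 did not pass, 60% called against 55.9% of all genes. FZD6, the most abundant, was at 18.0, 19.2 and 17.7 normalised FPKM in knockdown libraries and 12.5, 12.0 and 12.8 in control libraries (log2 change 0.55, SE 0.05; edgeR adjusted p = 1.07e-09). FZD2, which can bind WNT5A, was at 11.2, 10.6 and 11.0 in knockdown libraries and 7.77, 6.47 and 7.30 in control libraries (log2 change 0.60, SE 0.07; edgeR adjusted p = 5.77e-08). Both receptors were higher in every knockdown library. Of the summed Frizzled level, FZD6 made up 40.0 to 43.8% in knockdown libraries and 32.0 to 32.1% in control libraries. FZD2 made up 24.2 to 25.1% in knockdown libraries and 17.2 to 19.9% in control libraries.

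FZD4, a receptor for Wnt ligands and for norrin, fell most among the Frizzled genes. It was at 1.09, 0.917 and 1.18 normalised FPKM in knockdown libraries and 2.60, 2.91 and 2.69 in control libraries (log2 change -1.35, SE 0.11; edgeR adjusted p = 5.20e-11). The groups were well apart. Of its exonic bases, 18.9% are shared with PRSS23 on the other strand, and PRSS23 was itself higher in the knockdown (log2 change 0.69). FZD9 averaged 1.92 ± 0.256 in knockdown cells and 3.18 ± 0.243 in control cells (log2 change -0.72, SE 0.16; edgeR adjusted p = 3.44e-04). FZD3, a receptor known from axon guidance and planar polarity in mice, averaged 0.823 ± 0.0513 in knockdown cells and 1.23 ± 0.121 in control cells (log2 change -0.58, SE 0.11; edgeR adjusted p = 4.35e-05), a call lost with limma on FPKM (adjusted p = 0.0636; range over alternatives 1.10e-06 to 0.0636). FZD1 averaged 2.06 ± 0.110 in knockdown cells and 2.63 ± 0.0477 in control cells (log2 change -0.35, SE 0.09; edgeR adjusted p = 0.00246). In each of these receptors every knockdown library was below every control library.

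FZD5, FZD7, FZD8 and FZD10 did not pass, and their groups overlapped. Their 95% intervals for the log2 change were -0.38 to 0.08 for FZD5, -0.22 to 0.35 for FZD7, -0.47 to 0.11 for FZD8 and -0.26 to 0.26 for FZD10. FZD10 had the highest level of the 4, at 3.32 to 4.49 normalised FPKM in knockdown libraries and 3.48 to 4.75 in control libraries.

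**Figure D4:**
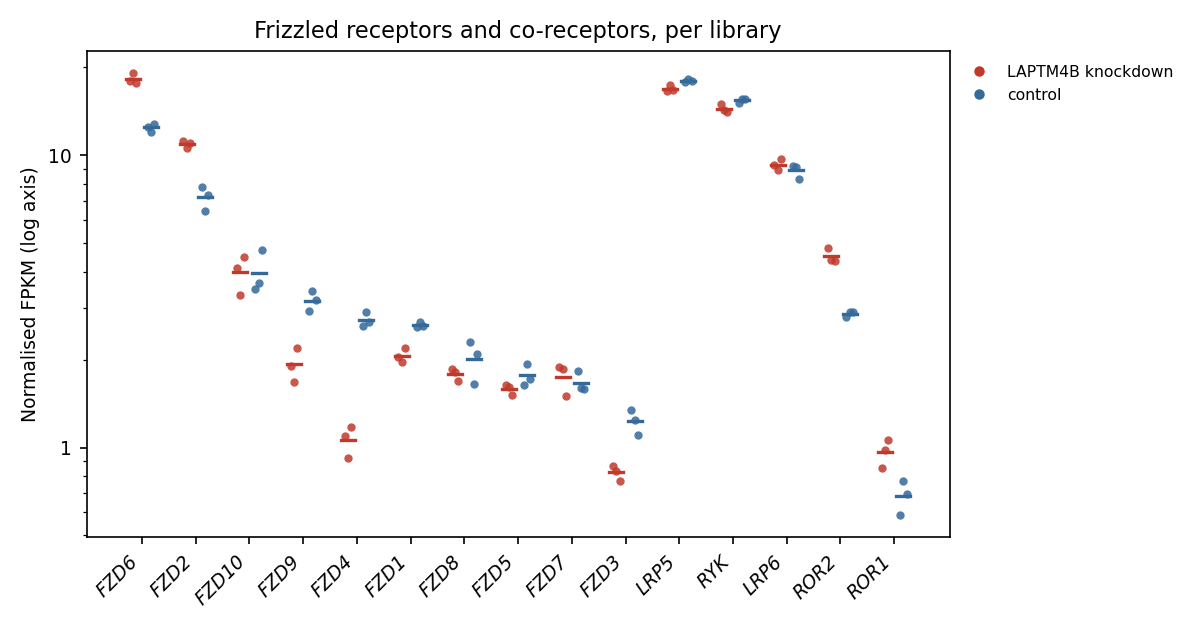
Normalised FPKM on a log axis for the 10 Frizzled receptors and 5 co-receptors; points are libraries, bars are means, knockdown to the left of control for each gene. FZD6, FZD2 and ROR2 are higher in all 3 knockdown libraries, and FZD4 is lower in all 3, at 0.917 to 1.18 in knockdown libraries against 2.60 to 2.91 in control libraries.

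Among the 5 co-receptors, ROR1 and ROR2 of the non-canonical arm rose, and RYK, LRP5 and LRP6 did not pass the test. ROR2, a tyrosine-kinase-like receptor for WNT5A, was at 4.84, 4.38 and 4.36 normalised FPKM in knockdown libraries and 2.80, 2.90 and 2.91 in control libraries. Its groups did not overlap (log2 change 0.65, SE 0.08; edgeR adjusted p = 1.67e-07). ROR1, its relative, was at 0.852, 0.980 and 1.06 in knockdown libraries and 0.586, 0.770 and 0.691 in control libraries (log2 change 0.50, SE 0.16; edgeR adjusted p = 0.0112). The ROR1 call was lost without control replicate 1 (adjusted p = 0.0722) and without knockdown replicate 3 (0.0616), within a range of 0.00749 to 0.0722 over all alternatives. RYK, a receptor with an inactive kinase domain that binds Wnt, was at 15.0, 14.3 and 14.1 in knockdown libraries and 15.1, 15.6 and 15.5 in control libraries. Its groups did not overlap, but the difference did not pass (95% interval of the log2 change -0.18 to -0.01; edgeR adjusted p = 0.0657).

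Neither LRP5 nor LRP6, the co-receptors of the canonical arm, passed. LRP5 was at 16.6, 17.4 and 16.7 normalised FPKM in knockdown libraries and 17.8, 18.2 and 18.0 in control libraries (log2 change -0.09, 95% interval -0.18 to -0.003; edgeR adjusted p = 0.0741). LRP6 averaged 9.29 ± 0.434 in knockdown cells and 8.89 ± 0.499 in control cells (interval -0.04 to 0.17).

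Taken by arm, 5 of 7 non-canonical members (WNT4, WNT5A, WNT5B, WNT11, ROR1, ROR2 and RYK) could be tested. WNT5A, ROR1 and ROR2 rose, WNT11 fell and RYK showed no call. Their median log2 change was 0.50. Of 25 canonical members 17 could be tested. Here 2 rose (DKK1 and TBX3), 6 fell, 9 showed no call, and the median log2 change was -0.13. The canonical set mixes activators with inhibitors such as DKK1 and feedback genes such as AXIN2, so its median gives no direction of signalling. Of 24 members that serve both arms 17 could be tested. Here 4 rose, 6 fell, 7 showed no call, and the median was -0.07. The shares called were 80% of the non-canonical, 47.1% of the canonical and 58.8% of the shared members tested, against 55.9% of all genes, whose median log2 change was 0.01. With 5 non-canonical genes tested, that share rests on 4 calls, and a difference between the arms was not tested.

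R-spondins enhance Wnt signalling by removing the ubiquitin ligases RNF43 and ZNRF3, which clear Frizzled from the cell surface. RSPO3 was at 3.29, 3.49 and 3.67 normalised FPKM in knockdown libraries and 1.13, 1.36 and 1.18 in control libraries. The groups were far apart, a 2.86-fold rise (log2 change 1.52, SE 0.12; edgeR adjusted p = 1.81e-11). RSPO3 lies on chromosome 6 at 127118671 to 127199481 (hg38). RSPO1 had at most 1 count in any library. ZNRF3 averaged 2.03 ± 0.144 in knockdown cells and 2.06 ± 0.128 in control cells (95% interval of the log2 change -0.24 to 0.18). RNF43 was low, at 16 to 24 counts in knockdown libraries and 14 to 19 in control libraries (interval -0.35 to 1.15).

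Secreted inhibitors moved in both directions. DKK1, which blocks LRP5 and LRP6 and is itself a target of beta-catenin, was the member with the highest mean level in knockdown cells. It was at 27.7, 27.2 and 28.4 normalised FPKM in knockdown libraries and 23.4, 22.5 and 22.6 in control libraries. All knockdown libraries were higher (log2 change 0.28, SE 0.05; edgeR adjusted p = 5.20e-05). NOTUM, an enzyme that strips the lipid from Wnt proteins and a known beta-catenin target, was at 0.830, 0.598 and 0.656 in knockdown libraries and 2.08, 1.87 and 2.13 in control libraries. This 2.91-fold fall left the groups far apart (log2 change -1.54, SE 0.20; edgeR adjusted p = 2.37e-07), on 27 to 38 counts per knockdown library and 84 to 120 per control library. DKK3 did not pass and was low, at 19 to 23 counts in knockdown libraries and 19 to 29 in control libraries. SFRP1, SFRP2, SFRP4, WIF1 and DKK4 were too low to test, with at most 10 counts in any library.

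The upstream windows of DKK1 and SP5, the members in which CTTTGA was found more than once, are shown with matches to either motif, on either strand, in capitals. SP5 is a transcription factor gene directly activated by beta-catenin.
DKK1 (GRCh38.p14, chr10:52314031-52314280, plus strand): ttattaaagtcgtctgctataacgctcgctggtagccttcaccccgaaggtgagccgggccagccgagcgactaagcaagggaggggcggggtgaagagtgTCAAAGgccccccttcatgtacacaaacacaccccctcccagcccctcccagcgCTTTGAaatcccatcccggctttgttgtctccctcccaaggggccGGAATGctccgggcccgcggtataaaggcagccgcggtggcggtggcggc
SP5 (GRCh38.p14, chr2:170715087-170715336, plus strand): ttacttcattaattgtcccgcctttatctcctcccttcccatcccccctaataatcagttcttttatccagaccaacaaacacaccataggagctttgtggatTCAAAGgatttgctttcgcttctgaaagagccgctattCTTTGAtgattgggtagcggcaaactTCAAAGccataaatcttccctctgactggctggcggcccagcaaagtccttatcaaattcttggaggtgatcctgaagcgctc
DKK1 held 2 matches to CTTTGA and 1 to GGAATG, and SP5 held 3 to CTTTGA. DKK1 rose, whereas SP5 was low, at 10 to 22 counts in knockdown libraries and 14 to 22 in control libraries, and did not pass (95% interval of the log2 change -0.71 to 0.89). A match is a string of letters and not a measured binding site.

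Of the genes used as readouts of beta-catenin, AXIN2, NKD1 and LGR5 were low. AXIN2, a scaffold of the destruction complex that is induced as feedback, was at 0.159, 0.236 and 0.195 normalised FPKM in knockdown libraries and 0.256, 0.174 and 0.298 in control libraries. The groups overlapped, and 13 to 30 counts per library left a wide interval (log2 change -1.04 to 0.41). NKD1, an inhibitor of Dishevelled with the same kind of feedback, had 3 to 8 counts in knockdown libraries and 10 to 20 in control libraries. It did not enter the test, and without a count filter its log2 change was -1.47 (SE 0.54; edgeR adjusted p = 0.0278). In the 4 fits without 1 library that tested it, the adjusted p ranged from 0.0124 to 0.0893, and it did not pass without knockdown replicate 1 (0.0893) or without knockdown replicate 3 (0.0805). LGR5, another beta-catenin target and named after its values were seen, had 0 to 10 counts in knockdown libraries and 0 to 2 in control libraries. NKD2, the relative of NKD1, was instead well expressed and rose. It was at 12.7, 11.5 and 11.6 normalised FPKM in knockdown libraries and 8.14, 8.79 and 7.23 in control libraries (log2 change 0.57, SE 0.08; edgeR adjusted p = 6.65e-07).

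**Figure D5:**
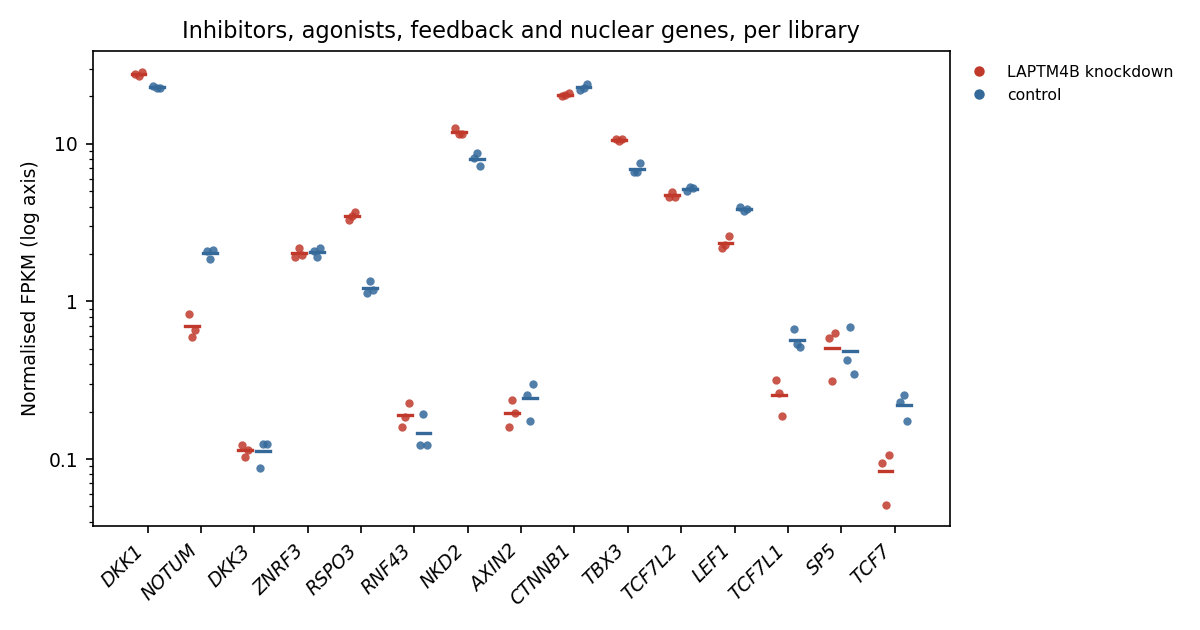
Normalised FPKM on a log axis for the tested inhibitors, agonists, feedback genes and nuclear genes; points are libraries, bars are means, knockdown to the left of control for each gene. RSPO3, NKD2 and TBX3 are higher and NOTUM, LEF1, TCF7L1 and TCF7 lower in all 3 knockdown libraries.

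CTNNB1, which encodes beta-catenin, was at 20.2, 20.4 and 20.9 normalised FPKM in knockdown libraries and 22.0, 22.7 and 24.1 in control libraries. It was slightly lower in each knockdown library (log2 change -0.16, SE 0.04; edgeR adjusted p = 6.66e-04). The call was lost with limma on FPKM (adjusted p = 0.0612; range over alternatives 3.46e-04 to 0.0612). Transcript counts do not measure the amount or location of the protein.

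Of the 4 TCF and LEF genes, the DNA-binding partners of beta-catenin, 3 fell, where 27.9% of all genes tested were lower. LEF1 was at 2.18, 2.28 and 2.60 normalised FPKM in knockdown libraries and 3.98, 3.74 and 3.84 in control libraries, with no overlap (log2 change -0.71, SE 0.10; edgeR adjusted p = 5.02e-07). TCF7 was at 0.0945, 0.0512 and 0.107 in knockdown libraries and 0.231, 0.256 and 0.174 in control libraries (log2 change -1.37, SE 0.34; edgeR adjusted p = 0.00120). TCF7L1, which mostly represses, was at 0.316, 0.262 and 0.189 in knockdown libraries and 0.664, 0.540 and 0.512 in control libraries (log2 change -1.16, SE 0.30; edgeR adjusted p = 0.00159). TCF7 and TCF7L1 rested on 8 to 22 counts per knockdown library and 34 to 53 per control library. TCF7L2, the most abundant of the 4, was at 4.64, 4.94 and 4.63 in knockdown libraries and 5.02, 5.34 and 5.24 in control libraries. Its difference did not pass (95% interval of the log2 change -0.27 to 0.002; edgeR adjusted p = 0.0870). TBX3, a T-box repressor counted among the liver targets of beta-catenin, was at 10.8, 10.4 and 10.7 in knockdown libraries and 6.67, 6.66 and 7.54 in control libraries, a rise with no overlap (log2 change 0.61, SE 0.06; edgeR adjusted p = 1.22e-09).

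Other genes of the pathway were taken from 5 lists, 107 genes with 83 tested. Here 27 rose, 27 fell and 29 showed no call, 65.1% called against 55.9% of all genes. Among extracellular modifiers and R-spondin receptors 12 of 24 were tested, of which 2 rose and 5 fell. This was 58.3% called, against 55.9% of all genes. LGR4, the R-spondin receptor present at a high level here, was at 39.7, 39.2 and 39.5 normalised FPKM in knockdown libraries and 61.5, 62.1 and 60.5 in control libraries (log2 change -0.64, SE 0.03; edgeR adjusted p = 7.41e-15). It fell while its ligand gene RSPO3 rose. KREMEN2, a DKK1 receptor, fell to 1.16 ± 0.436 in knockdown cells, against 3.18 ± 0.469 in control cells, and 13.8% of its exonic bases are shared with PKMYT1. The Wnt modulator LYPD6 and the glypican GPC1 rose, with log2 changes of 0.64 and 0.24.

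All 20 genes of the destruction complex and Dishevelled group were tested, and 7 rose, 7 fell and 6 did not pass. Of this group 70% were called, 35% higher and 35% lower, against 55.9%, 28.0% and 27.9% of all genes. The casein kinase CSNK1E fell to 11.2 ± 0.113 normalised FPKM in knockdown cells, against 21.0 ± 0.211 in control cells (log2 change -0.91, SE 0.04; edgeR adjusted p = 3.02e-16). The Dishevelled genes, which relay the signal from Frizzled in both arms, were split. DVL2 averaged 11.4 ± 0.356 in knockdown cells and 19.1 ± 0.285 in control cells, and DVL1 averaged 32.4 ± 1.29 in knockdown cells and 41.2 ± 2.59 in control cells. DVL3 rose, at 20.9 ± 0.398 in knockdown cells and 17.9 ± 0.803 in control cells (edgeR adjusted p = 6.84e-05).

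Among 16 nuclear partners of beta-catenin 6 rose, 4 fell and 6 did not pass, 62.5% called against 55.9% of all genes. The co-activator BCL9L was at 23.1 ± 0.337 normalised FPKM in knockdown cells and 14.4 ± 0.619 in control cells (log2 change 0.68, SE 0.04; edgeR adjusted p = 4.08e-14). CREBBP, a histone acetyltransferase, TLE4, a co-repressor of TCF factors, and JUP, the beta-catenin relative plakoglobin, rose with log2 changes of 0.57, 0.79 and 0.37. Of the other listed co-repressors of the TLE family, named after their values were seen, TLE1 and TLE2 fell and TLE3 did not pass. TLE3 was at 6.83 ± 0.192 normalised FPKM in knockdown cells and 6.85 ± 0.122 in control cells (log2 change -0.005; edgeR adjusted p = 0.939). TLE2 was at 0.359 ± 0.0814 in knockdown cells and 1.27 ± 0.0653 in control cells (log2 change -1.82, SE 0.22; edgeR adjusted p = 1.04e-07), and TLE1 was at 6.97 ± 0.619 in knockdown cells and 8.29 ± 0.256 in control cells (log2 change -0.25, SE 0.07; edgeR adjusted p = 0.00217).

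Of 27 genes of the polarity and calcium arm 23 were tested, and 8 rose, 6 fell and 9 did not pass. This was 60.9% called, against 55.9% of all genes. DAAM1, a formin that binds Dishevelled, was at 2.81 ± 0.0747 normalised FPKM in knockdown cells and 1.77 ± 0.144 in control cells (log2 change 0.67, SE 0.08; edgeR adjusted p = 7.68e-08). The cadherin-like polarity gene CELSR3 rose (log2 change 0.51) and its relative CELSR1 fell (-0.34), while the kinase gene PRKCA rose (0.36).

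Among 22 beta-catenin target genes outside the 56, 12 could be tested. Of these 4 rose, 5 fell and 3 showed no call, and their median log2 change was 0.01, as over all genes. The share called was 75% against 55.9% of all genes, with 33.3% higher against 28.0% and 41.7% lower against 27.9%. GLUL, the glutamine synthetase of hepatocytes around the central vein, was at 4.12, 4.99 and 4.39 normalised FPKM in knockdown libraries and 10.7, 11.5 and 11.9 in control libraries (log2 change -1.34, SE 0.06; edgeR adjusted p = 4.46e-17). SOX9, MYC and CD44 fell as well, with log2 changes of -1.33, -0.74 and -0.51. CCND1, BAMBI, ID2 and BIRC5, named after their values were seen, rose with log2 changes of 0.50, 0.83, 2.26 and 0.17. These targets respond to other signals too, and both directions were found among them.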

How the data were processed

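RNA was sequenced from 3 LAPTM4B knockdown and 3 control libraries, grouped by sample titles. Per the labels' protocols, RNA was isolated with Trizol and sequenced from Illumina TruSeq libraries. Per the submitters' processing notes the build was hg38. For the aligner, counter, annotation release and strand setting, the sources used here give nothing. The authors deposited raw counts and FPKM values for each gene in each library, per the file headers, and a further column with exonic length. Count divided by length and library total gave 100% of the deposited FPKM values within 0.0051.

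The main test was the two-sided quasi-likelihood F test of edgeR 4.0.16 (R 4.3.3) on counts filtered by filterByExpr and scaled by TMM, adjusted by Benjamini-Hochberg over 16354 genes. The SE is the log2 change divided by the square root of F, and 95% intervals use the test's degrees of freedom. Exonic overlap was taken from GENCODE 29 for partners of at least 1 CPM, and promoters from RefSeq (GRCh38.p14).

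The genes and lists were chosen with earlier results of these data known, so no list was tested as a set. Every one of the 56 genes is named, with up to 4 called genes per pathway list, those of smallest p (overlap partners and genes picked later, from their values, are marked in the text). No library columns were identical, and libraries of a group differed beyond sampling noise, with a chi-square per gene of 1.89 to 4.38. The test was checked on simulated counts. The alternatives comprised DESeq2 1.42.0, edgeR with other size factors (median-of-ratios or upper-quartile), without a count filter, with a replicate block and without each library, and limma 3.58.1 on log2(FPKM + 0.1) where the mean reached 1 FPKM. The labels name no batch. Python 3.11.15, pandas 2.3.3 and matplotlib 3.10.9 were used for tables and plots.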

Additional observations from a re-analysis of the deposited data

How the results depend on the processing

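Of the 22 called members, 18 kept their call and direction under each of the 12 alternatives that tested them, and none of the 22 changed direction. The calls lost were those of WNT10B, FZD3, ROR1 and CTNNB1, given above. With limma on FPKM, 6 members were lower, against 13 in edgeR. Of the other 7, WNT2B, WNT11, TCF7 and TCF7L1 fell below its 1 FPKM minimum, and WNT10B, FZD3 and CTNNB1 did not pass; for those 3 the cause was not tested. Over all genes that fit called 4496 higher and 2915 lower, so 60.7% of its calls were higher, against 50.1% in edgeR (4584 higher and 4559 lower). The limma fit used the deposited FPKM without TMM rescaling. Its median log2 change, over genes of the main test, was 0.07, against 0.01 in edgeR. With the replicate number as a block, 9 members were higher and 13 lower, as without it, and over all genes 4441 and 4408. Same-numbered libraries did not deviate together (correlations 0.02, -0.05 and -0.04 across genes), so the numbers were not taken as pairs. Without each library in turn, 8 to 10 members were higher and 12 to 14 lower. The sign of the log2 change turned for 4 members that passed under none of these. FZD10 (0.003 in the main test) was at -0.004 with median-of-ratios factors, -0.002 with DESeq2 and -0.098 to 0.165 without a library. ZNRF3 was at 0.033 with limma on FPKM and -0.085 to 0.017 without a library. DKK3 ranged from -0.149 to 0.108 and SP5 from -0.102 to 0.389 without a library. The cause was not tested. Depth limits the 17 members that were not tested, where a limit of 3 counts was 0.155 to 0.194 CPM.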
